A study of Mus musculus with 19 samples.

Results

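Guanylate-binding proteins (Gbps) are large GTPases that cells make in response to interferon. They assemble on the membranes of pathogen vacuoles and on bacteria, help to break them open, and are known to promote sensing of lipopolysaccharide in the cytosol by caspase-11. Their genes carry binding sites for STAT and IRF factors and are classical targets of interferon-gamma, and resting microglia, the resident macrophages of the brain, transcribe some of them at a low level. The 10 members described here (Gbp2, Gbp2b, Gbp3, Gbp4, Gbp5, Gbp6, Gbp7, Gbp8, Gbp9 and Gbp10) were chosen by gene symbol, mapped through the GENCODE mouse annotation to the Ensembl identifiers of a count table with 56980 genes. Each of the 10 has 1 identifier in that table, and their values were read in all 19 libraries.

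The libraries were stranded total RNA-seq of CD11b+ cells, magnetically enriched from dissociated whole brain without the olfactory bulb and cerebellum, of male mice at 3 to 4 months of age. The knockout (KO) mice lack PARK7/DJ-1, a redox-sensitive protein encoded by a gene mutated in early-onset Parkinson's disease, through a gene trap. They are of the line B6;129P2-Park7 Gt(XE726)Byg/Mmucd, which had been backcrossed to C57BL/6NCrl. The controls were wildtype (WT) littermates from heterozygous breeding pairs. Mice received 1 intraperitoneal injection of E. coli O55:B5 LPS at 4 µg per g of body weight or of PBS (saline) as vehicle, and were perfused 6 h later. There were 5 WT LPS, 4 WT PBS, 5 KO LPS and 5 KO PBS libraries, each from 1 animal as the labels number them. The knockout is constitutive in every cell of the animal, and CD11b marks microglia together with other myeloid cells.

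Depth was between 11936364 and 22788884 counts per library, with a median of 17211939, so that 3 counts in a library were worth 0.139 to 0.256 CPM (the usual per-library count scale, with library totals adjusted by TMM). Park7 itself had 9 to 90 counts in the KO libraries and 262 to 533 in the WT libraries, with no overlap. All 8 microglia markers matched by symbol were present in each group, with a summed level of 10289 to 16651 CPM in LPS and 24509 to 39222 CPM in PBS libraries, and 8 of 8 were called lower after LPS in both genotypes. RNA of other brain cells was present as well, and its amount differed between libraries. Over the 19 libraries the summed level of 5 oligodendrocyte markers was 515 to 11235 CPM, and that of 6 astrocyte markers 201 to 4553 CPM. Both sums were highest in KO LPS replicate 1, where the microglia sum was 12964 CPM. The summed level of 6 endothelial markers (Cldn5, Pecam1, Flt1, Ly6c1, Ly6a and Cdh5) was 90.01 CPM in KO LPS replicate 5 and 199 CPM in WT LPS replicate 1, against 379 to 897 CPM in the other 8 LPS libraries and 303 to 982 CPM in the PBS libraries. Of 10 lymphocyte markers the summed level was at most 3.73 CPM in any library. In such bulk samples fewer cells of a type and less RNA per cell cannot be told apart.

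The members lie in clusters on chromosomes 3 and 5 (GRCm39, GENCODE M39). On the plus strand of chromosome 3 stand Gbp5 (142199739 to 142228105), Gbp7 (142236044 to 142255910), Gbp3 (142265731 to 142278979), Gbp2b (142300602 to 142324940) and Gbp2 (142326349 to 142343779). On the minus strand of chromosome 5 stand Gbp8 (105162016 to 105287452), Gbp9 (105224332 to 105287452), Gbp4 (105263633 to 105287609), Gbp10 (105362773 to 105412666) and Gbp6 (105418568 to 105443751). The annotated spans of Gbp8, Gbp9 and Gbp4 overlap on the same strand. Near-identical stretches let reads fit more than 1 gene. Of all 75-base windows of annotated transcript, 63.4% in Gbp10 and 57.2% in Gbp6 occur in another gene, most of them in each other and in the overlapping gene Gm43302, which had 0 counts in all 19 libraries. Gbp7 shares 9.97% of its windows, mostly with Gm43802, which also had 0 counts throughout, and the other 7 members share 0.803% to 6.69%. The counts of Gbp10 and Gbp6 are for that reason uncertain as values of single genes.

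The promoters of Gbp2, Gbp5, Gbp7 and Gbp3 are shown because these 4 chromosome 3 genes rose after LPS and each holds the letters of an IRF motif before a start, and Gbp5 and Gbp7 those of a STAT motif as well. RefSeq promoter windows (300 bases, table build GRCm38.p6) were given for 5 of the 10 members, with 2 starts for Gbp3. The windows were searched for the STAT motif TTCNNNGAA, which is its own reverse complement, and on both strands for the IRF motif GAAANNGAA. The 250 bases before the start are printed 5′ to 3′ on the plus strand, with the matches in capitals, and each occurs at 1 place on chromosome 3 of GRCm39. The start is the RefSeq one and not the start of the GENCODE span. The Gbp5 window lies wholly within the span of Gbp5, which begins upstream at 142199739. The other printed windows end inside the spans of their genes. The IRF matches lie on the minus strand and are printed as their reverse complement.
Gbp2, chr3:142326174-142326423: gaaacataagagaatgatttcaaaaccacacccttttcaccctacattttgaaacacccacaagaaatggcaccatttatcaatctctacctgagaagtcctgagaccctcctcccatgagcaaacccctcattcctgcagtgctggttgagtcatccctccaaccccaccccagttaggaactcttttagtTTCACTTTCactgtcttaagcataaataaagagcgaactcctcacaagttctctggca
Gbp5, chr3:142202445-142202694: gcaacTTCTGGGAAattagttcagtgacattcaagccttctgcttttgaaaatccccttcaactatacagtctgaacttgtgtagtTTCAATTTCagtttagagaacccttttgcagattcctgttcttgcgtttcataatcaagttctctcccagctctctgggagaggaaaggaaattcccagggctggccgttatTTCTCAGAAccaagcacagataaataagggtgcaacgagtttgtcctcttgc
Gbp7, chr3:142235847-142236096: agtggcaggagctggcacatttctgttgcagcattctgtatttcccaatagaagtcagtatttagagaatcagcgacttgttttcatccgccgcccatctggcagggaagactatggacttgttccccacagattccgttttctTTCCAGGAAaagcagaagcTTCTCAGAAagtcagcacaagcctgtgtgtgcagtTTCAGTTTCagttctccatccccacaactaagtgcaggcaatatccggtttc
Gbp3, chr3:142265555-142265804: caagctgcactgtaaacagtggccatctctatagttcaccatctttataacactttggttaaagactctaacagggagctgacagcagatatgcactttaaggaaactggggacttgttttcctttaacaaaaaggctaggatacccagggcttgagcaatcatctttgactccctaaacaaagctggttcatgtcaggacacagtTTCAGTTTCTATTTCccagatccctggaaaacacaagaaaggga
In Gbp2 an IRF match covers bases -58 to -50 from the start. In Gbp5 the STAT matches begin at -245 and -52 and the IRF match at -164, and in Gbp7 the STAT matches begin at -106 and -87 and the IRF match at -52. Gbp3 holds 2 overlapping IRF matches, from -44 to -30, while the window of its other start holds neither motif. Gbp2b has 1 IRF match, from -136 to -128. Over all 32851 promoter windows of this length, 8.30% hold the STAT motif, 8.56% the IRF motif and 1.07% both. In the printed windows no STAT match overlaps an IRF match. These are matches of letters and no measurement of binding.

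Most of the family rose after LPS. In WT mice 8 of 9 tested members were higher in LPS than in PBS libraries by edgeR's quasi-likelihood test (Benjamini-Hochberg adjusted p under 0.05 over all 18739 genes tested, log2 fold change of at least 0.5), and this call was made for 18.4% of all genes tested. In KO mice 8 of 9 members were called higher, against 20.1% of all genes. The median log2 fold change of the 9 members was 3.74 in WT and 3.13 in KO, beside -0.06 and -0.01 over all genes. Gbp8 was the member without a call in both genotypes, and Gbp2b was left out of the test by the filter on low counts. Gbp10 passed that filter only through its LPS libraries, with 1 count in the WT PBS and 2 in the KO PBS libraries together. It is included in the 8 calls and in the medians. All LPS libraries lay above all PBS libraries for 8 members in WT, where 20.8% of all genes did so, and for 7 in KO, where 16.2% did. Gbp10 is among the 7, although its lowest KO LPS library and its highest KO PBS library both held 2 counts. The genotypes have separate PBS animals, and 1 fit estimated the spread for both.

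**Figure D1:**
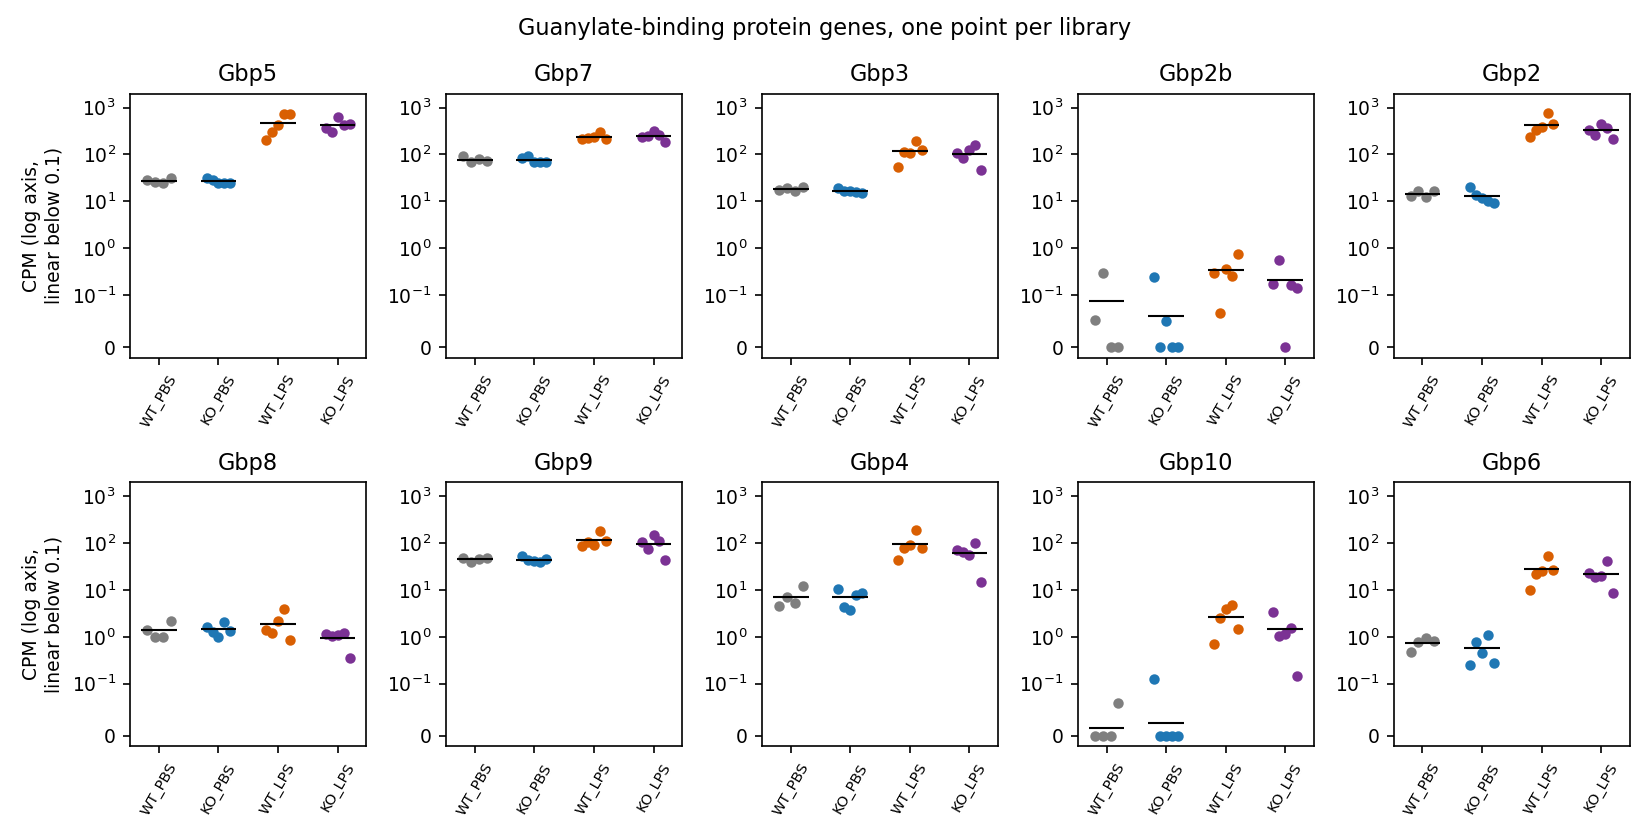
Level of each of the 10 members in CPM (y axis, logarithmic, linear below 0.1 CPM) in every library of the 4 groups, with a line at each group's mean. The LPS libraries stand above the PBS libraries in most panels, Gbp8 shows overlapping groups, and Gbp2b and the PBS libraries of Gbp10 lie near 0.

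Gbp2, a prenylated member recruited to bacterial and parasite vacuoles, was among the most raised. Its level was 12.98, 16.97, 12.2 and 16.5 CPM in the 4 WT PBS libraries and 233, 325, 383, 777 and 442 CPM in the 5 WT LPS libraries. In KO it was 20.01, 13.9, 11.7, 10.4 and 9.45 CPM after PBS and 331, 261, 450, 376 and 211 CPM after LPS. The LPS and PBS libraries did not overlap in either genotype, and WT LPS replicate 4 was the highest of all. The log2 fold change was 4.88 ± 0.36 (SE; adjusted p = 6.47e-09, edgeR) in WT and 4.64 ± 0.32 (adjusted p = 1.95e-09, edgeR) in KO, which is 29.5-fold and 24.9-fold.

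Gbp5, which also carries a prenylation motif and is known for its link to the NLRP3 inflammasome, rose almost as much. WT PBS libraries had 28.4, 25.3, 24.1 and 30.9 CPM and WT LPS libraries 206, 305, 419, 732 and 718 CPM. KO PBS libraries had 32.0, 28.1, 24.6, 24.9 and 24.8 CPM and KO LPS libraries 370.4, 307, 638, 428 and 437 CPM. The groups were apart by several-fold, and the WT LPS libraries were spread more widely than the KO ones. The log2 change was 4.13 ± 0.34 (SE; adjusted p = 2.11e-08, edgeR) in WT and 4.02 ± 0.30 (adjusted p = 5.26e-09, edgeR) in KO. By size of the change Gbp5 stood at rank 181 and Gbp2 at rank 113 of the 18739 genes in WT.

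Gbp7, described as a partner of the phagocyte NADPH oxidase, was the member with the highest resting level and rose less. It had 69.7 to 90.8 CPM in WT PBS and 68.1 to 91.1 CPM in KO PBS libraries. After LPS the WT libraries had 216, 225, 237, 301 and 217 CPM and the KO libraries 234, 247, 318, 262 and 188 CPM. No LPS library reached down to the PBS libraries. This was a log2 fold change of 1.62 ± 0.15 (SE; adjusted p = 7.91e-08, edgeR) in WT and 1.71 ± 0.14 (adjusted p = 1.05e-08, edgeR) in KO. Its spread within WT LPS libraries was an SD of 0.20 on the log2 scale, against 0.79 for Gbp5 and 0.64 for Gbp2.

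Gbp3, another member found at pathogen vacuoles, rose from 16.6 to 19.9 CPM in WT PBS libraries to 54.1, 110.5, 110.02, 198 and 125.5 CPM after LPS. In KO it rose from 14.7 to 19.5 CPM to 108.3, 86.0, 124, 159 and 47.0 CPM. The low values were those of WT LPS replicate 1 and KO LPS replicate 5. The rise was 2.72 ± 0.32 log2 units (SE; adjusted p = 1.71e-06, edgeR) in WT and 2.65 ± 0.30 (adjusted p = 6.12e-07, edgeR) in KO.

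Gbp2b, the gene earlier named Gbp1 in the mouse, was barely counted. Its libraries held 1, 5, 0 and 0 counts in WT PBS, 5, 1, 6, 4 and 9 in WT LPS, 4, 0, 1, 0 and 0 in KO PBS and 3, 10, 0, 3 and 2 in KO LPS. The groups overlapped and most libraries were at or near the 3-count floor, so that Gbp2b was not in the test of all genes. Summed over libraries there were 25 counts after LPS against 6 after PBS in WT, a depth-scaled ratio of 3.69 (95% exact conditional interval 1.48 to 11), and 18 against 5 in KO, a ratio of 4.10 (1.47 to 14.1). These intervals exclude 1 but cover counting error only, and not the spread between animals. With that spread, in a fit with no filter on low counts, the adjusted p was 0.262 in WT and 0.252 in KO (edgeR), so that a change beyond it was not detectable.

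Of the chromosome 5 members, Gbp4 varied widely among LPS libraries. It had 4.64, 6.91, 5.12 and 12.05 CPM in WT PBS and 42.4, 76.4, 88.5, 194 and 77.004 CPM in WT LPS libraries. In KO it had 10.4, 4.34, 3.81, 7.80 and 8.43 CPM after PBS and 71.6, 63.7, 54.6, 98.7 and 14.4 CPM after LPS. The groups did not overlap, although KO LPS replicate 5 came close to the PBS libraries. It rose by 3.74 ± 0.53 log2 units (SE; adjusted p = 1.43e-05, edgeR) in WT and 3.13 ± 0.47 (adjusted p = 2.25e-05, edgeR) in KO.

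Gbp6 and Gbp10, close relatives that are found at parasite vacuoles, went from almost no reads to clear expression. Gbp6 had 9, 13, 14 and 13 counts in WT PBS and 170, 333, 424, 811 and 305 counts in WT LPS libraries. In KO it had 4, 17, 9, 21 and 5 counts after PBS and 399, 330, 337, 741 and 119 counts after LPS. All LPS libraries were far above all PBS libraries, and the log2 fold change was 5.19 ± 0.56 (SE; adjusted p = 5.91e-07, edgeR) in WT and 5.25 ± 0.51 (adjusted p = 1.28e-07, edgeR) in KO. For Gbp10 only 1 count was found in the 4 WT PBS libraries together and 2 in the 5 KO PBS libraries together. After LPS it had 12, 38, 64, 75 and 17 counts in WT and 60, 18, 19, 27 and 2 counts in KO. KO LPS replicate 5 was thus at the level of the highest PBS library in counts, with 0.144 CPM against 0.123 CPM. The ratio of summed, depth-scaled counts was 182 in WT (95% exact conditional interval 32.4 to 7238) and 71.7 in KO (19.4 to 598), intervals that cover counting error only. The change of Gbp10 was called in both genotypes (adjusted p = 4.78e-05 in WT and 7.61e-05 in KO, edgeR). Gbp10 had passed the low-count filter only through its LPS libraries, so that these p-values follow a selection on the treatment where it is high.

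Gbp9 had the highest count of the chromosome 5 cluster at rest and rose least among the called members. It had 39.6 to 47.4 CPM in WT PBS and 84.5, 104, 91.9, 183 and 107.96 CPM in WT LPS libraries. In KO it had 38.7 to 51.8 CPM after PBS and 103, 76.0, 151, 111 and 44.3 CPM after LPS. KO LPS replicate 5 lay within the PBS range, so that the KO groups overlapped by this library. It rose by 1.35 ± 0.27 log2 units (SE; adjusted p = 0.000432, edgeR) in WT and 1.13 ± 0.25 (adjusted p = 0.000886, edgeR) in KO.

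Gbp8 did not follow the rest of the family. It had 27, 16, 15 and 35 counts in WT PBS, 23, 18, 36, 61 and 10 counts in WT LPS, 26, 28, 19, 39 and 25 counts in KO PBS and 20, 18, 18, 21 and 5 counts in KO LPS libraries. All 4 groups overlapped. Its log2 change was 0.47 ± 0.42 (SE; adjusted p = 0.413, edgeR; 95% confidence interval -0.41 to 1.35) in WT and -0.59 ± 0.40 (adjusted p = 0.253, edgeR; -1.43 to 0.25) in KO. Gbp11, a family gene next to Gbp6 that is not among the 10, had at most 23 counts in a library.

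**Figure D2:**
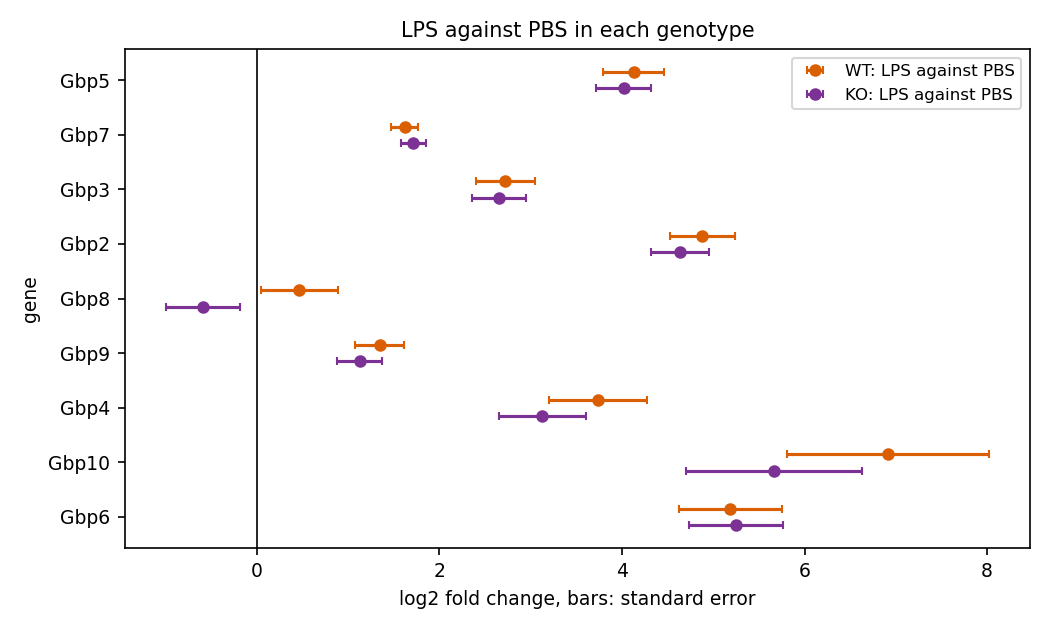
Log2 fold change of LPS against PBS (x axis; bars, standard error) for the 9 tested members in WT and KO mice. The values run from 0.47 for Gbp8 to 6.91 for Gbp10 in WT and from -0.59 to 5.67 in KO, and the bars of the genotypes overlap for most members.

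Because of these unequal changes the make-up of the family differed between PBS and LPS libraries. The members together had 192 ± 12.1 CPM (SD, n = 4) in WT PBS, 1509 ± 611 CPM (n = 5) in WT LPS, 186 ± 22.6 CPM (n = 5) in KO PBS and 1299 ± 325 CPM (n = 5) in KO LPS libraries. Levels of different genes were compared per kilobase of annotated exon, and the shares below are of the family's summed CPM per kilobase. After PBS Gbp7 had the highest level per kilobase in each of the 9 libraries, with 39.9% ± 4.48 of the sum in WT and 40.9% ± 2.84 in KO. After LPS Gbp2 took 50.6% ± 2.76 in WT and 46.2% ± 2.13 in KO, up from 17.6% ± 2.89 and 16.1% ± 2.91. Gbp5 went from 11.4% ± 0.71 to 19.4% ± 4.71 in WT and from 11.9% ± 0.31 to 22.3% ± 5.38 in KO.

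With annotated exons as length, the order of mean levels per kilobase was the same in both genotypes within each treatment. After LPS it was Gbp2, Gbp5, Gbp7, Gbp3, Gbp9, Gbp4, Gbp6, Gbp10, Gbp8 and Gbp2b, from 169 ± 81.1 to 0.124 ± 0.0912 CPM per kilobase in WT. After PBS it was Gbp7, Gbp2, Gbp9, Gbp3, Gbp5, Gbp4, Gbp8, Gbp6, Gbp2b and Gbp10, from 12.99 ± 1.57 to 0.00265 ± 0.00529 CPM per kilobase in WT. After LPS the ranges of neighbours overlapped except between Gbp6 and Gbp10, while within a library Gbp2 was above Gbp5 in all 10 LPS libraries and Gbp10 was above Gbp8 in 4 of 10. After PBS the ranges were apart between Gbp7 and Gbp2, between Gbp5 and Gbp4 and between Gbp8 and Gbp6. The length used matters, as for Gbp5, whose annotated exons span 7290 bases and whose canonical transcript has 3182, and for Gbp8, with 4506 and 1600. With canonical lengths, an alternative added after seeing the data, Gbp7 still led after PBS (30.5% in WT, 30.95% in KO), while after LPS Gbp2 led in WT (37.2% against 32.1% for Gbp5) and Gbp5 in KO (36.1% against 33.2% for Gbp2). The order after LPS then differed between the genotypes further down. Gbp3 stood above Gbp7 and Gbp4 above Gbp9 in WT only, and Gbp8 stood above Gbp10 in both.

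**Figure D3:**
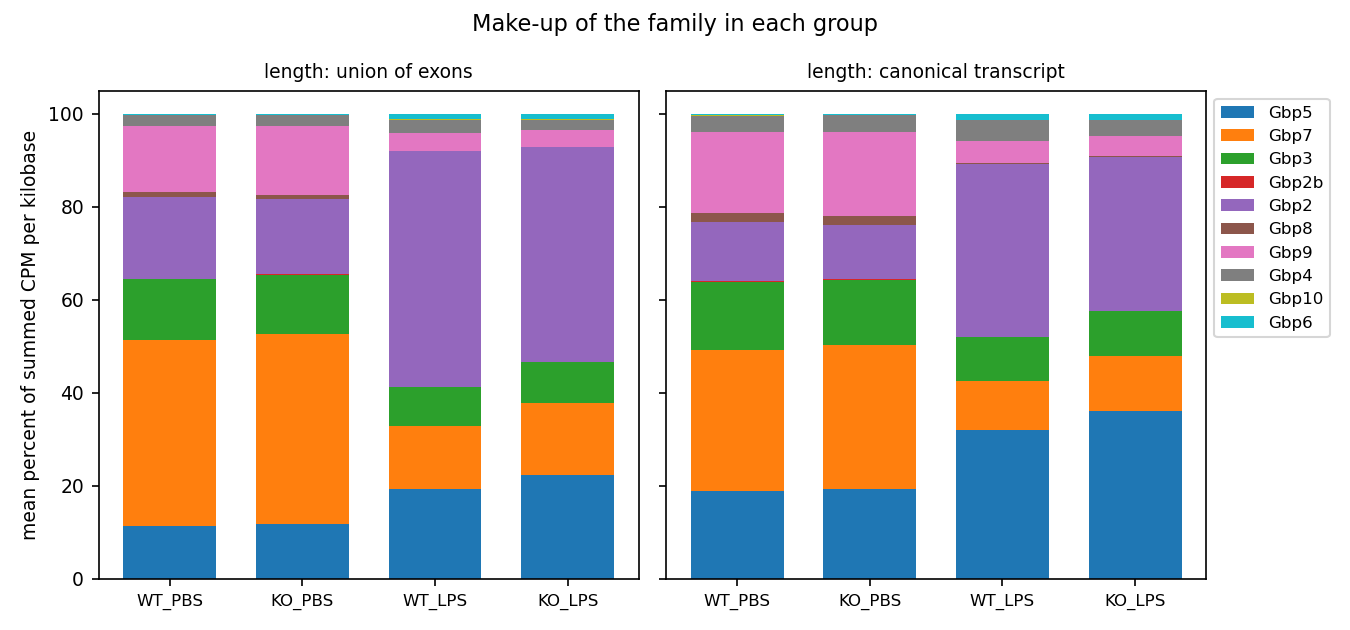
Mean percent of the family's summed CPM per kilobase (y axis) taken by each member in the 4 groups, with the union of exons (left) or the canonical transcript (right) as length. The Gbp7 band is the widest after PBS, and the Gbp2 and Gbp5 bands widen after LPS.

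The question behind the genotype comparison was whether loss of PARK7/DJ-1 changes this response. After LPS 8 of the 9 tested members had lower fitted means in KO than in WT, with a median log2 fold change of -0.29 beside 0.02 over all genes, and Gbp7 stood at 0.06. This tally rested on WT LPS replicate 4, the library with the highest level of each tested member in its group. Without it 5 members were below 0 and 4 above, with a median of -0.00222, and Gbp5 (0.08), Gbp3 (0.07) and Gbp6 (0.10) turned positive. With each of the other LPS libraries left out 7 to 9 members were below 0, and the median was from -0.13 without KO LPS replicate 5 to -0.50 without WT LPS replicate 1. Gbp8 was the 1 member that passed the study's rule for this contrast (unadjusted p under 0.05 and a log2 fold change of at least 0.5 in size), which 0.763% of all genes passed in the lower direction. Its KO LPS libraries had 1.12, 1.03, 1.08, 1.17 and 0.361 CPM and its WT LPS libraries 1.37, 1.18, 2.17, 3.97 and 0.853 CPM. The genotypes overlapped through WT LPS replicate 5, and the WT values were the more spread. The difference was -0.99 ± 0.40 log2 units (SE; 95% confidence interval -1.84 to -0.15; adjusted p = 1.00 over all genes, edgeR). An exact permutation test (two-sided, on log2 CPM) gave p = 0.127, where 0.00794 is the smallest value it can give with 5 against 5 libraries. Without WT LPS replicate 4 the Gbp8 difference was -0.55 and without KO LPS replicate 5 it was -0.80, and the call was lost in both.

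The larger differences in the rest of the family did not exceed the spread between libraries. Gbp10 was lower in KO by a log2 fold change of -0.88 (95% confidence interval -2.15 to 0.38), Gbp4 by -0.66 (-1.56 to 0.25) and Gbp2 by -0.41 (-0.98 to 0.16). Gbp6 stood at -0.29 (-1.14 to 0.56), Gbp9 at -0.24 (-0.75 to 0.27), Gbp3 at -0.19 (-0.77 to 0.39) and Gbp5 at -0.13 (-0.69 to 0.43). The genotypes overlapped in all 9 members, and the adjusted p was 1.00 for each (edgeR). Exact permutation tests of the 9 members gave p from 0.127 to 1.00. The intervals leave room for a decrease of Gbp4, Gbp10 or Gbp6 by more than 1 log2 unit, so that a difference of this size was not detectable here rather than absent. Leaving out 1 library brought in a second call, Gbp10 without KO LPS replicate 1 (log2 fold change -1.47) and Gbp2 without WT LPS replicate 1 (-0.57). The smallest differences with 1 library left out were -0.087 for Gbp2, -0.23 for Gbp4 and -0.56 for Gbp10. Markers of other cells were compared in the same contrast. All 5 monocyte markers were below 0 in KO against WT after LPS (median log2 fold change -0.51, from -0.66 to -0.28), as were all 6 endothelial markers (median -0.26, from -0.58 to -0.04), and none of these 11 was called. Of the 2 lymphocyte markers tested, Ncr1, the natural killer cell receptor NKp46, was called lower in KO at -1.63 ± 0.68 (SE; adjusted p = 1.00, edgeR), with 0 to 11 counts in KO LPS and 4 to 19 in WT LPS libraries, and Nkg7 stood at -1.29 and was not called. In a PBS library Ncr1 had at most 6 and Nkg7 at most 8 counts. Both thus passed the low-count filter through LPS libraries, mostly those of WT, and the call follows that selection. The other lists had a median log2 fold change of 0.15 over 6 astrocyte markers, of which 5 were above 0, 0.30 over 4 neuron markers, 0.04 over 5 oligodendrocyte markers, 0.01 over 6 neutrophil markers, -0.10 over 6 border macrophage markers and 0.06 over 8 microglia markers, and no gene of these lists was called. Reads of ribosomal RNA genes, a sign of how well the depletion worked, were 1.03%, 0.164%, 0.218%, 0.347% and 0.0567% of the counts in KO LPS libraries and 0.0389% to 0.0727% in WT LPS libraries, higher in 4 of 5 KO libraries than in any WT one. With ribosomal and mitochondrial genes left out the median difference of the family stayed at -0.29, and any other part of this difference between libraries was not tested. The part of these cells in the genotype differences of the family was not tested, apart from the endothelial sum, whose values follow.

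After PBS no member passed the same rule, which 0.8% of all genes passed in either direction, and no member had an unadjusted p under 0.05 (edgeR) or a call by DESeq2. The smallest p was 0.543, of Gbp6, which had 0.572 ± 0.366 CPM (SD, n = 5) in KO and 0.746 ± 0.193 CPM (n = 4) in WT libraries. For the well-counted members the intervals were narrow, with a log2 fold change of -0.03 (95% confidence interval -0.33 to 0.27) for Gbp7, -0.02 (-0.56 to 0.52) for Gbp9 and -0.02 (-0.62 to 0.59) for Gbp5. Exact permutation tests of the 9 members after PBS gave p from 0.222 to 1.00. The interaction of genotype and LPS, which tests whether the LPS response itself differed, was called for 0 members and for 0% of all genes (adjusted p under 0.05, edgeR). No member reached an unadjusted p under 0.05 or a DESeq2 call there, and the smallest p was 0.0859, of Gbp8, whose LPS response was lower in KO by 1.06 log2 units with an interval from -2.28 to 0.16.

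**Figure D4:**
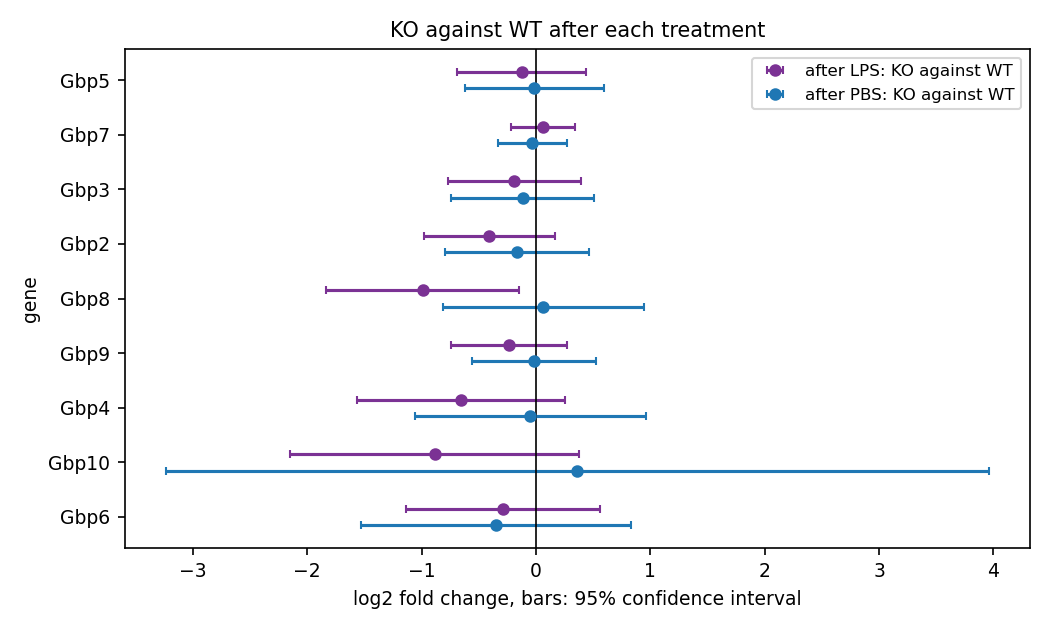
Log2 fold change of KO against WT (x axis; bars, 95% confidence interval) for the 9 tested members after LPS and after PBS. The LPS interval of Gbp8 (-1.84 to -0.15) is the only one of the 18 that does not include 0, and the intervals of Gbp10 are the widest.

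Within a group the members moved together from library to library. After each group's mean was subtracted from the log2 CPM, the 36 pairs of tested members had a median Pearson r of 0.637 over the 19 libraries, from 0.238 to 0.858, and 29 pairs were above 0.5. Pairs on different chromosomes had a median r of 0.566, and pairs within chromosome 3 and within chromosome 5 had 0.653 and 0.678. Gbp2 and Gbp3 were the most alike (r = 0.858), and Gbp3 and Gbp9, which lie on different chromosomes, had r = 0.846. These correlations share the libraries and their depth, the largest deviations came from LPS libraries, and they are given as a description. WT LPS replicate 4 had the highest value of its group for all 9 tested members, WT LPS replicate 1 the lowest for 8 and KO LPS replicate 5 the lowest for 8. The exceptions were Gbp8, lowest in WT LPS replicate 5, and Gbp5, lowest in KO LPS replicate 2.

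WT LPS replicate 1 and KO LPS replicate 5 were also the LPS libraries with the lowest endothelial marker sums, given above. Over the 10 LPS libraries, deviations from the group mean had r = 0.949 (Spearman's rho 0.818) with the endothelial sum for Gbp10, 0.853 (rho 0.648) for Gbp4, 0.767 for Gbp3 and 0.138 for Gbp5. Without these 2 libraries r was 0.807 for Gbp10, 0.315 for Gbp4, -0.03 for Gbp3 and -0.55 for Gbp5, so that the relation of Gbp4 and Gbp3 rested on them. For the family mean r with the endothelial sum was 0.753, and 0.0803 without them. The astrocyte marker sum had r = 0.933 for Gbp10, 0.786 for Gbp4 and 0.163 for Gbp5 over the same 10 libraries, and 0.816, 0.595 and 0.425 without KO LPS replicates 5 and 1, the libraries farthest from its median. For the family mean r with the astrocyte sum was 0.764, and 0.714 without those libraries, and for single members it was then between 0.425 and 0.816. With the lymphocyte sum, of few counts, the family mean had r = 0.222, and 0.654 without KO LPS replicate 1 and WT LPS replicate 5. These points share their libraries and scaling, and are a description. After LPS 1 of 6 endothelial markers was called higher and 1 lower in WT, and 2 higher and 1 lower in KO, and 1 of 6 astrocyte markers was called higher in each genotype. The microglia marker sum ran the other way, with r = -0.841 for Gbp6, -0.838 for Gbp3, -0.779 for Gbp2, -0.673 for Gbp5, -0.436 for Gbp7 and -0.743 for the family mean over these 10 libraries. Without WT LPS replicate 4 and KO LPS replicate 4, the farthest from its median, r was -0.702 for Gbp5 and -0.573 for the family mean. The monocyte marker sum had r = 0.690 for Gbp7, 0.652 for Gbp2, 0.630 for Gbp5, 0.0712 for Gbp10 and 0.556 for the family mean, which became 0.722 without KO LPS replicates 3 and 1. With the neutrophil sum r was 0.424 for Gbp5 and 0.00605 for the family mean. With the oligodendrocyte sum r was 0.181 for the family mean, and 0.273 without KO LPS replicate 1 and WT LPS replicate 2. With KO LPS replicate 5 and WT LPS replicate 1 left out, or with the endothelial sum as a covariate (both added after seeing the data), 8 of 9 members were called higher after LPS in WT and in KO, and 1 was called lower in KO after LPS, as in the fit of all libraries. With the covariate the KO difference after LPS became -0.25 for Gbp2, -0.03 for Gbp3, -0.08 for Gbp6, -0.16 for Gbp9, -0.45 for Gbp4 and -0.70 for Gbp10, the median over the 9 members was -0.16, and 8 were still below 0. With both libraries left out it was -0.44 for Gbp2, -0.19 for Gbp3, -0.29 for Gbp6 and -0.32 for Gbp5, while Gbp9 stood at -0.15, Gbp4 at -0.59 and Gbp10 at -0.85, with a median of -0.32 and 8 of 9 below 0. Monocyte markers moved with LPS too, with 5 of 5 called higher in each genotype. The summed monocyte level was 25.8 to 41.1 CPM in WT PBS, 246 to 465 CPM in WT LPS, 18.8 to 56.4 CPM in KO PBS and 144 to 367 CPM in KO LPS libraries. Of 6 neutrophil markers 3 were called higher and 1 lower in WT, and 4 higher and 1 lower in KO, with a summed level of 258 to 643 CPM in LPS and 391 to 586 CPM in PBS libraries. Of 6 border macrophage markers 3 were called lower in each genotype, with a summed level of 272 to 518 CPM in LPS and 473 to 636 CPM in PBS libraries. The part of RNA from any of these cell types in the members' levels was not tested beyond these values.

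**Figure D5:**
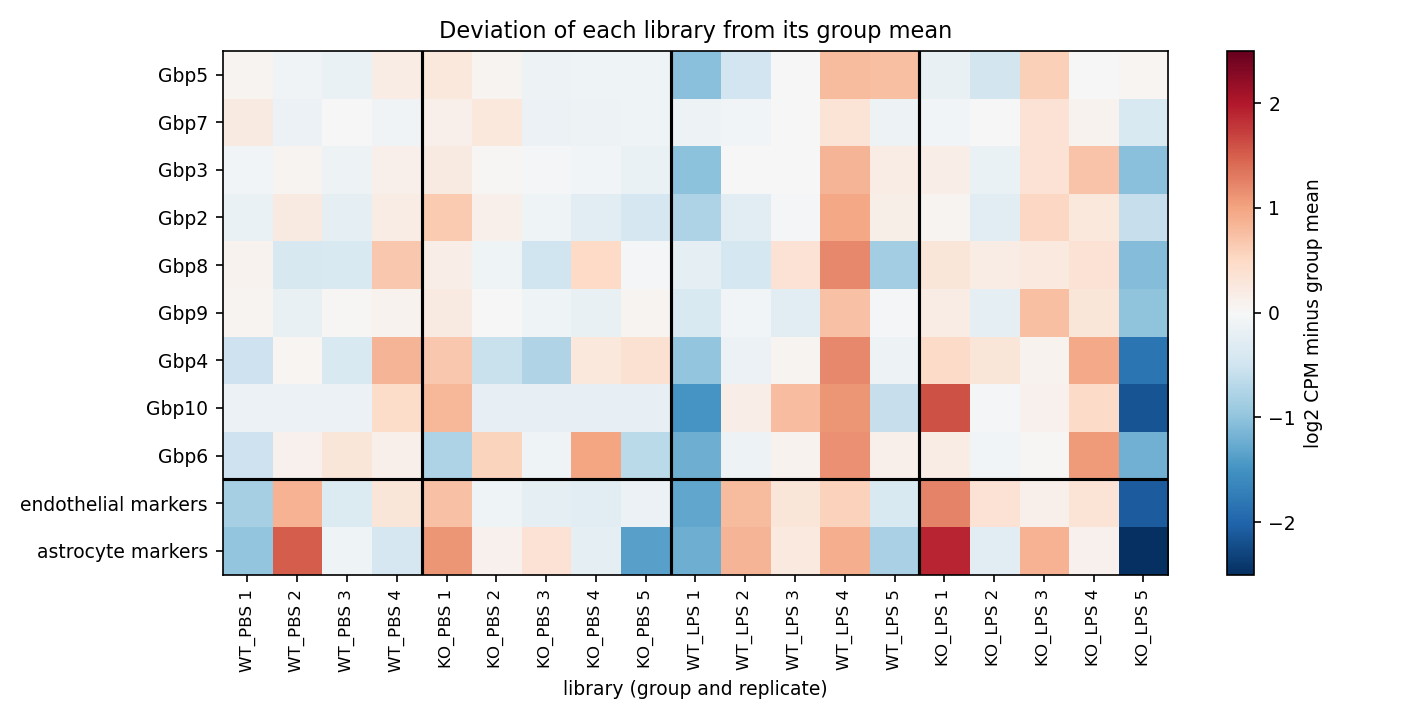
Log2 CPM minus the group mean (colour, red above and blue below) of the 9 tested members, and the same for the summed endothelial and astrocyte markers, in each of the 19 libraries (x axis). WT LPS replicate 4 is red in every member row, and WT LPS replicate 1 and KO LPS replicate 5 are blue in most member rows and in both marker rows.

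The 5 other genes most like the family mean in these deviations were Iigp1 (Pearson r = 0.947, 0.873 without the 2 libraries farthest from the median), Il19 (0.921 and 0.828), Tnfsf10 (0.910 and 0.824), Ifi47 (0.908 and 0.843) and Stom (0.893 and 0.850), over 19 libraries. Iigp1 and Ifi47 encode immunity-related GTPases, the second family of interferon-induced GTPases. Il19 encodes a cytokine of the interleukin-10 family, Tnfsf10 the death ligand TRAIL and Stom the membrane protein stomatin. The farthest libraries were KO LPS replicate 5 and WT LPS replicate 4.

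Genes that act upstream of the family were read from a fixed list of 17 interferon ligands, receptors, kinases, transcription factors and inhibitors. Of 15 tested, 9 were called higher after LPS in WT and 9 in KO, and 0 were called between genotypes after LPS. The largest changes in WT were those of Usp18 (log2 fold change 3.92), a brake on interferon receptor signalling, Socs3 (3.30), an inhibitor of cytokine receptors, Stat2 (2.40), a factor of type I interferon signalling, and Irf1 (1.81), a factor induced by interferon-gamma. None of the 4 receptor genes (Ifngr1, Ifngr2, Ifnar1 and Ifnar2) was called, and their log2 fold changes were between 0.01 and 0.43 in the genotypes. The ligands themselves did not pass the filter. Ifng, the gene of interferon-gamma, had 10, 1, 19, 25 and 8 counts in WT LPS and 0, 1, 1, 5 and 0 in KO LPS libraries, and at most 2 in a PBS library, and WT LPS replicate 4 held the most. The genotypes overlapped in these counts, and the difference was not tested. Ifnb1 had 0 to 14 counts in WT LPS, 1 to 14 in KO LPS and 0 in the PBS libraries.

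Partner GTPases work with the Gbps at vacuole membranes. Of 6 tested, 5 were called higher after LPS in each genotype, in WT with log2 fold changes of 4.27 for Tgtp1, 4.11 for Ifi47, 3.5 for Tgtp2 and 2.13 for Irgm1, while Irgm2 was at 0.33 and not called. After LPS all 6 were below 0 in KO against WT and 1 was called, Tgtp2, at -0.75 ± 0.31 (SE; adjusted p = 1.00, edgeR). Tgtp1 and Tgtp2 are near-identical copies, so that the split of reads between them is uncertain.

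Of 8 genes of inflammasomes and their products, 3 were called higher in each genotype. They were Il1b (4.95 in WT and 4.73 in KO), a cytokine matured downstream of inflammasomes, Casp4 (2.62 and 2.98), the gene of caspase-11, and Nlrp3 (2.16 and 2.36), a sensor. Among 5 prenylation enzymes, which attach the lipid anchor that some Gbps carry, Rce1 rose by 0.55 in WT and 0.75 in KO, and Fnta fell by 0.52 in WT and stood at -0.31, not called, in KO. Among 8 genes of ATG8 conjugation, the autophagy machinery that helps to load GTPases onto vacuoles, Atg16l1 rose by 0.53 in WT and 0.56 in KO and Gabarapl2 fell by 0.71 and 0.53. No gene of these 3 lists was called between genotypes after LPS.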

How the data were processed

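RNA of MACS-enriched CD11b+ brain cells was made into ribosomal RNA-depleted, stranded total RNA libraries and sequenced with paired reads of 75 bases. The authors trimmed reads with Cutadapt (version 0.17.4 in the submitters' processing notes), aligned them with STAR 2.7.9a to GRCm39 and deposited raw counts per gene, with Ensembl release 108 as annotation. The counting strand and the handling of reads that fit several genes are not given in the sources used here. Of 56980 identifiers, 56236 were named with GENCODE M39. The authors' own tests used DESeq2.

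The deposited counts were fitted with edgeR 4.0.16 (R 4.3.3) in 1 quasi-likelihood model of all 19 libraries in 4 groups, with TMM scaling and the filterByExpr filter (minimum count 10, minimum total 15), which left 18739 genes. Of the 10 members 9 passed. A member counts as called at an adjusted p under 0.05 and a log2 fold change of at least 0.5 (LPS against PBS), an unadjusted p under 0.05 with the same fold (KO against WT), or an adjusted p under 0.05 (interaction). The first and second follow the thresholds the study used for these contrasts, and the third was chosen here. log2 CPM used a prior count of 2. Permutation tests were run with scipy 1.17.1. Confidence intervals are the fitted change plus and minus the 95% t quantile times its standard error. Replicates are single animals as the labels number them. No 2 libraries agreed within counting noise (the smallest chi-square per degree of freedom between replicates was 6.50). The procedure was tested on simulated counts, where it called all 98 genes changed 4-fold and 76.5% of 102 changed 2-fold for LPS against PBS in WT. The simulation gave every gene the same spread and changed only genes above a minimum mean count. These shares therefore do not apply to members with few counts or a wider spread. Genes named are all members, the most changed called genes of each list (at most 4) and the 5 genes most like the family. The members, lists and motifs were chosen with earlier results of these data known. Alternatives were DESeq2 1.42.0 and its size factors, 2 other filters, fits of 2 groups, the replicate number as a block, animal number as a covariate, ribosomal and mitochondrial genes left out, other thresholds, members summed by cluster, and each library left out. Irgb10 and Fcrls had no single match by symbol and were not used. Protein sequences were not used here.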

Additional observations from a re-analysis of the deposited data

Results flagged for a closer look

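Each member's highest and lowest library was compared with the rest of its group in 36 groups of 4 or 5 libraries. By Dixon's test 5 values, from 4 libraries, stood apart. Chance alone gives such a value in about 1 in 20 groups, and the 36 groups share their libraries. Gbp7 had 301 CPM in WT LPS replicate 4, against 216 to 237 CPM in the other 4 libraries of the group. Gbp9 had 183 CPM in the same library, against 84.5 to 107.96 CPM. Gbp8 had 0.361 CPM in KO LPS replicate 5, against 1.03 to 1.17 CPM. Gbp10 had 0.123 CPM in KO PBS replicate 1 and 0.0621 CPM in WT PBS replicate 4, which are 2 counts and 1 count where the other PBS libraries had 0, and both lie below the 3-count floor.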

How the results depend on the processing

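The counts of members called for LPS against PBS (8 in each genotype) were 6 among the 6 members tested with at least 10 counts in every library, 7 of 8 tested in KO in the fit of the 2 groups only (Gbp10 was not tested there), and 8 under every other alternative and with each library left out. With 1 library left out the LPS change of Gbp10 ran from 6.57 to 8.53 in WT and from 5.10 to 7.63 in KO. That of Gbp8 ran from 0.0204 to 0.79 in WT and from -0.69 to -0.39 in KO. The count for KO against WT after LPS, 1, became 0 with at least 10 counts in every library (Gbp8 was then not tested), 0 in the fit of the 2 groups only (Gbp8 at -0.99) and 0 with adjusted p-values, and ranged from 0 to 2 with 1 library left out. It stayed 0 for PBS and for the interaction. Libraries of the same replicate number were compared by the correlation of their deviations from the group means. Between LPS and PBS it was from -0.0418 to 0.576 in WT and from 0.0265 to 0.544 in KO. Between KO and WT it was from -0.573 to 0.3. Whether shared numbers pair the libraries was not tested further. The replicate block gave 8, 8, 1, 0 and 0 calls, the same counts as without it. For KO against WT after PBS the sign of 3 members with values near 0 turned: Gbp7 (0.0247 with the replicate block, 0.0152 with animal number as covariate), Gbp9 (0.0767 and 0.00851) and Gbp4 (0.155 with the block, 0.0271 with the endothelial covariate), and the interaction of Gbp3 turned to 0.0611 with the endothelial covariate. Summed as a cluster, the chromosome 5 members changed by 2.16 (WT) and 1.77 (KO) after LPS, below the members' medians of 3.74 and 3.13, since Gbp9 holds most of the resting counts.

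With 1 library left out, signs turned for KO against WT in Gbp5 (-0.32 to 0.082), Gbp7 (-0.0374 to 0.16), Gbp3 (-0.39 to 0.0688) and Gbp6 (-0.64 to 0.0957) after LPS, and in Gbp5 (-0.0876 to 0.0627), Gbp7 (-0.104 to 0.0533), Gbp8 (-0.0925 to 0.38), Gbp9 (-0.0823 to 0.0244), Gbp4 (-0.24 to 0.33) and Gbp10 (-1.60 to 1.96) after PBS. For the interaction they turned in Gbp5 (-0.30 to 0.0992), Gbp7 (-0.00619 to 0.19), Gbp3 (-0.28 to 0.19), Gbp2 (-0.40 to 0.0765), Gbp9 (-0.43 to 0.0183), Gbp10 (-2.86 to 0.72) and Gbp6 (-0.30 to 0.45). After LPS the turns of Gbp5, Gbp3 and Gbp6 came without WT LPS replicate 4, and that of Gbp5 also without WT LPS replicate 5. None of these values was called; the cause was not tested. Depth limits Gbp2b, Gbp8 and the PBS libraries of Gbp10 and Gbp6, all of which held few counts.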
